A study of Danio rerio with 16 samples.

Results

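The testes of zebrafish exposed to exemestane were compared with the ovaries of zebrafish exposed to the same concentrations. Exemestane (EM) is a steroidal inhibitor of aromatase, the enzyme that makes estrogens from androgens. The 12 EM libraries of the 16 in the series were taken by their labels: 6 EM-males and 6 EM-females, with 2 fish of each sex at 50, 100 and 200 µg/L. All were adults of the AB strain, 4 months old and exposed for 32 days, and each library came from the gonad of 1 fish. The 2 control males and 2 control females, labelled only as controls, were kept out of the test and used to see whether directions repeated. One tank held both sexes of a treatment, so tank and concentration cannot be told apart. Labels and methods name no separate cultures beyond the single fish, and p-values measure the spread between these fish.

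The ovary of an adult zebrafish is made up largely of oocytes, which grow in follicles of granulosa and theca cells, build an egg coat from zona pellucida (ZP) proteins and store RNA and protein for the embryo. The testis holds spermatogenic cysts in which Sertoli cells enclose germ cells that pass through meiosis and then build a flagellum. Leydig cells between the cysts make androgens, of which 11-ketotestosterone is the main one in fish. In bulk RNA, fewer cells of a type and less RNA per cell cannot be told apart.

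Gene counts totalled 4180861 to 8213907 per EM-male (median 5666585.5) and 9275513 to 13821205 per EM-female (median 12210745.5). At least 1 read was seen for 23539 to 25137 genes in an EM-male and for 20362 to 21073 in an EM-female, although the testis libraries were shallower. Values below are normalized counts, the authors' counts divided by a size factor for each library, and are not per gene length, so they are compared between fish and not between genes. Fold changes are log2 of EM-males over EM-females with their standard error, from edgeR's quasi-likelihood test with concentration as a block. A gene was called at a Benjamini-Hochberg adjusted p under 0.05 over all tested genes.

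Some testis libraries stood apart from the others and are named here before the results. Markers of gut and pancreas summed to 69011 in EM_low_male replicate 2, to 97798 in EM_high_male replicate 2 and to 31649 in EM_high_male replicate 1, and to between 2915 and 4390.5 in the other EM-males. They summed to between 99.0 and 319 in the EM-females. Markers of liver summed to 59151 in EM_low_male replicate 2 and 97860 in EM_high_male replicate 2, to between 3330 and 18892 in the other EM-males, and to between 158 and 916 in the EM-females. EM_high_male replicate 2 also had the lowest sum of germ cell genes among the EM-males. The control males showed the same kind of spread, with gut and pancreas sums of 12293 and 239593. The counts over all genes are therefore also given without EM_low_male replicate 2 and EM_high_male replicate 2, and without these and EM_high_male replicate 1.

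Most genes differed between testis and ovary. Of 20487 genes tested, 9127 were higher in EM-males (44.6%) and 6653 were higher in EM-females (32.5%), which is 77.0% in either direction, and 4707 were not called. The differences were larger on the testis side. The median log2 fold change was 4.12 among genes called higher in EM-males (3.41 with genes at the floor set to their bound) and -1.89 among genes called higher in EM-females (-1.84 with the bound), and 0.47 over all tested genes. Differences shown to be beyond 4-fold, by edgeR's test against that threshold, numbered 6157 in favour of EM-males (30.1%) and 2080 in favour of EM-females (10.2%), or 40.2% in all. The 6 EM-males and the 6 EM-females did not overlap in 11748 genes (57.3%). Without EM_low_male replicate 2 and EM_high_male replicate 2, 9238 genes of 21280 were called higher in EM-males and 6790 higher in EM-females, 6058 and 2231 of them beyond 4-fold, and 13581 genes did not overlap. Without EM_high_male replicate 1 as well, 8472 of 20851 were called higher in EM-males and 6338 higher in EM-females, 5386 and 2139 of them beyond 4-fold, and 14038 did not overlap, with fewer fish to overlap. A stricter filter kept genes with at least 50 counts in every EM-male or in every EM-female, which is harder to reach in the shallower testis libraries. It ended the excess of calls on the testis side, with 4151 genes higher in EM-males and 4206 higher in EM-females of 11034 tested. Beyond 4-fold the excess remained, with 2005 genes higher in EM-males and 1015 higher in EM-females. With all libraries thinned to the shallowest, 8129 of 18022 tested genes were called higher in EM-males and 5627 higher in EM-females. The part of depth in the counts under the stricter filter was not tested.

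Many testis genes were at or near 0 in the ovary, and the reverse was rarer. In 2745 genes called higher in EM-males every EM-female had at most 3 counts, and 517 of these averaged at least 100 normalized counts in the EM-males. In 254 genes called higher in EM-females every EM-male had at most 3 counts, and 31 of these averaged at least 100 in the EM-females. The counts were 3053 and 358 without EM_low_male replicate 2 and EM_high_male replicate 2, and 2711 and 424 without EM_high_male replicate 1 as well. The numbers of such genes depended on depth: called or not, 522 genes with a mean of at least 100 in EM-males had at most 3 counts in every EM-female, and 941 did once all libraries were thinned to the shallowest. The reverse held for 32 genes, and for 51 after thinning. For such genes the fold is given as a lower bound, against 3 counts in each library. Ovaries were also more alike than testes. Over 6608 genes with a mean of at least 100 in both sexes, the median SD of log2 values was 0.44 among EM-males and 0.21 among EM-females, and 83.3% of these genes varied more among EM-males. These EM-males include the testis libraries set apart above, none of which was at 100 µg/L. At 50, 100 and 200 µg/L the replicates differed by a median of 0.38, 0.32 and 0.56 (log2) in EM-males. In EM-females these medians were 0.21, 0.22 and 0.21. Pearson's r of log2 values across genes, where genes are not independent replicates, ran from 0.762 to 0.899 among EM-males, from 0.952 to 0.960 among EM-females and from 0.442 to 0.568 between an EM-male and an EM-female.

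**Figure D1:**
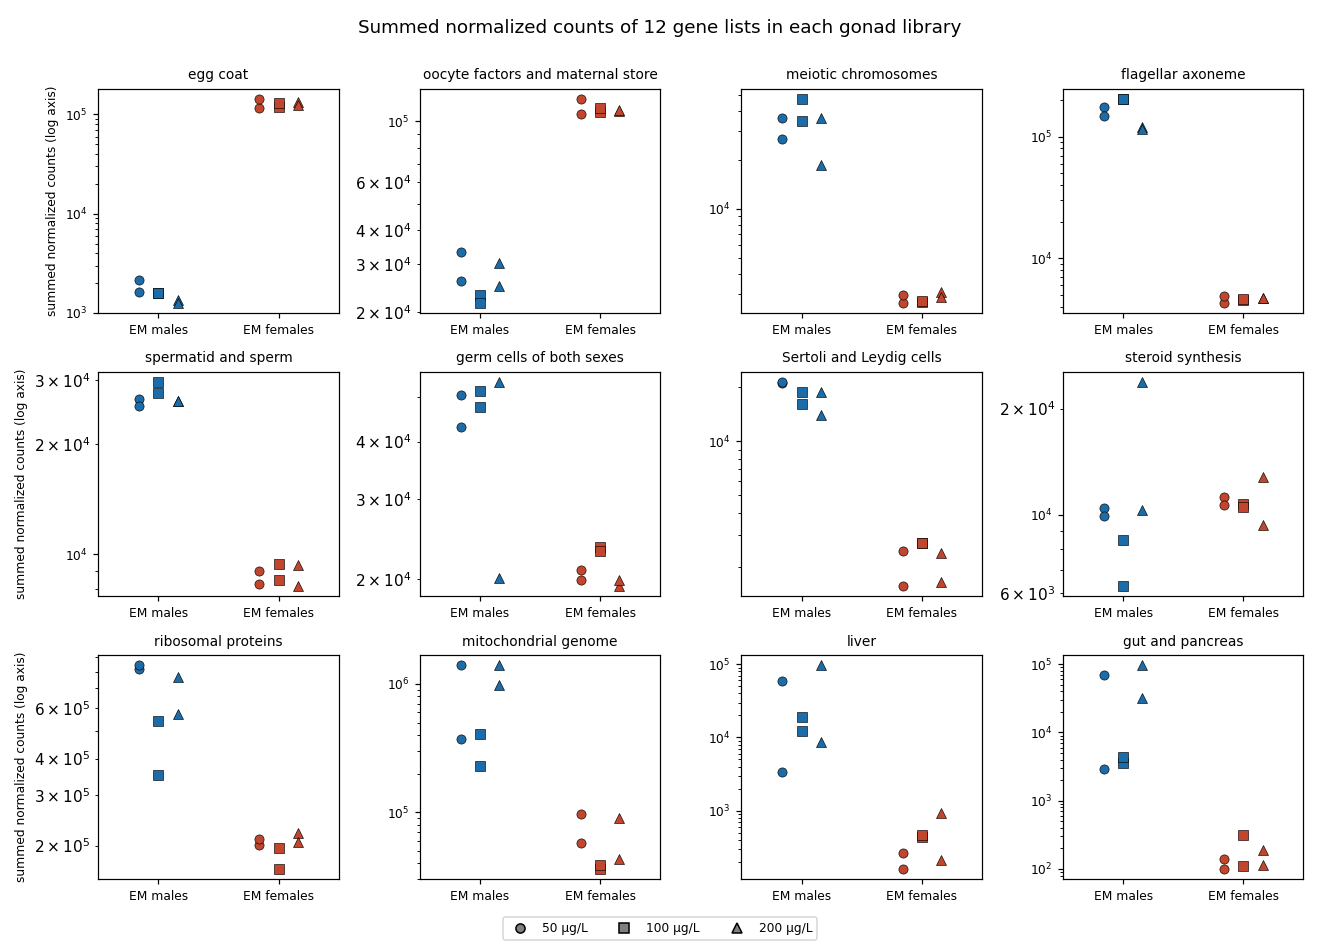
Summed normalized counts of 12 gene lists in each of the 12 gonad libraries, on a log axis that differs between panels, with EM-males left, EM-females right and symbols for the concentration. The sexes do not overlap in 10 of the panels, and overlap in germ cells of both sexes, where EM_high_male replicate 2 stands at 20188, and in steroid synthesis. The germ cell list also holds ca15b, which is high in EM-females only.

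The egg coat was the most one-sided ovary list. Of 21 ZP genes tested, 0 were called higher in EM-males and 20 higher in EM-females (95.2%). The shares over all tested genes were 44.6% and 32.5%. The median log2 fold change of the list was -7.99, against 0.47 over all tested genes. The summed list was 1257 to 2166 normalized counts in EM-males and 117247 to 143960 in EM-females. The gene zp3a.1 (ENSDARG00000042129) had a lowest, median and highest value of 8.82, 19.6 and 22.8 in EM-males and of 13319, 14465 and 16330.0 in EM-females (log2 fold change -10.02 ± 0.29, adjusted p = 1.6e-10). For zp3e (ENSDARG00000016908) the lowest and highest values were 13.7 and 38.1 in EM-males and 17357 and 21824 in EM-females (-9.72 ± 0.28, adjusted p = 1.6e-10). In both genes every EM-female was far above every EM-male. The member that was not called was zp2l1, with a log2 fold change of -0.87 and overlapping sexes. The smallest called differences were those of zpax4 (-1.35) and zp3d.2 (-1.80), so that the list spanned a wide range. ZP genes lie in families of similar copies, and reads that matched more than 1 place were left out of the counts (24.8% to 31.7% of tallied reads in EM-males, 33.5% to 36.1% in EM-females), so single copies are uncertain.

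Regulators of the oocyte and its maternal store were also higher in the ovary, with exceptions. Of 34 tested, 6 were called higher in EM-males (17.6%) and 25 higher in EM-females (73.5%, median -3.97). The shares over all tested genes were 44.6% and 32.5%. The carbonic anhydrase gene ca15b had 2.17, 3.60 and 7.63 (lowest, median, highest) in EM-males, against 3069, 4414 and 4759.5 in EM-females (-10.26 ± 0.29, adjusted p = 1.3e-10). It led the ovary side by fold change under the naming rule. The gene buc encodes Bucky ball, which organizes the Balbiani body of early oocytes, and had 85.2, 157 and 274 in EM-males and 11756, 12732 and 14644 in EM-females (-6.63 ± 0.27, adjusted p = 1.6e-09). The oocyte growth factors gdf9 and bmp15 were higher in EM-females (-5.38 and -6.53), as were the maternal factor zar1 (-7.79) and the oocyte transcription factor figla (-3.79). Members that went the other way were YBX1, elavl2, cpeb1a, stm, BMP2 (ENSDARG00000013409) and H1-10. BMP2 was matched without the letter of its copy, so it may not be the copy that the list named. The RNA-binding protein genes YBX1 and elavl2 differed by 1.15 each, and BMP2, a signalling ligand, by 4.43.

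Further genes singled out by the naming rule for their fold change or their count in the ovary were retsatl (-9.77), h2af1al (-9.11), crp2 (-8.98), zp3a.2 (-8.85), kpna7 (-7.52) and ckbb (-3.68). The importin kpna7 carries proteins into the nucleus, and ckbb is a creatine kinase. The gene qdprb.3 (-8.79 ± 1.16) was uneven among ovaries, with 0 to 8.52 in EM-males and a lowest value of 15.3 and a highest of 2886 in EM-females. The retinol dehydrogenase rdh10b, which makes the precursor of retinoic acid, was among the most even: it had 138, 174 and 232 in EM-males and 7027, 7215 and 7752 in EM-females (-5.62 ± 0.16, adjusted p = 1.5e-10).

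Genes of oocyte maturation and the cell cycle leaned to the ovary (median -1.32). Of 30 tested, 4 were called higher in EM-males (13.3%), 19 higher in EM-females (63.3%) and 7 were not called. For all tested genes the shares were 44.6% and 32.5%. Cyclin CCNE2 (4.59) and the replication helicase subunit mcm3 (5.27) were higher in EM-males. The cyclins ccna1 (-4.19), ccnb2 (-3.41) and ccnb1 (-2.38) and the kinase aurka (-2.23) were higher in EM-females. Of the other helicase subunits, MCM2 (-1.45), MCM4 (-1.89) and mcm5 (-2.20) were called higher in EM-females. MCM7 was not called, and MCM6 and mcm6l are given below. The histone chaperone nasp varied by over an order of magnitude among ovaries, with 209, 567 and 708 in EM-males and 340.2, 4889.6 and 18821 in EM-females (-3.23 ± 0.99, adjusted p = 0.012). Its sexes overlapped, and the call was lost without EM_middle_female replicate 2 (-1.76).

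Genes of the flagellum lay almost wholly on the testis side. Of 105 axoneme genes tested, 100 were called higher in EM-males (95.2%) and 0 higher in EM-females, against 44.6% and 32.5% of all tested genes. The median log2 fold change was 6.51 (6.27 with genes at the floor set to their bound). The list summed to 115209 to 204678 normalized counts in EM-males and 4300 to 4908 in EM-females. The inner dynein arm gene DNALI1 had 3357, 4840.2 and 6247 in EM-males and 0, 0.61 and 4.33 in EM-females (11.36 ± 0.54, adjusted p = 7e-09). The filament gene TEKT1 had 3084, 5030.1 and 7103 in EM-males, against 0.79, 3.51 and 8.39 in EM-females (9.92 ± 0.45, adjusted p = 4e-09). In both genes the EM-males lay far above every EM-female. The radial spoke gene RSPH9 was at least 864-fold higher in EM-males. The ciliary transcription factors foxj1b (7.81), FOXJ1 (9.07) and rfx3 (3.03) were higher in EM-males, and RFX2 was not called (0.15 ± 0.25), its sexes overlapping, except with the stricter filter (0.73).

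Transport along the flagellum differed less. In the intraflagellar transport list 26 of 37 genes were called higher in EM-males (70.3%) and 0 higher in EM-females, and the median was 1.82. For all tested genes the shares were 44.6% and 32.5%. IFT46 was higher in EM-males (3.67 ± 0.22), and IFT88 was not called, with a mean of 94.9 ± 46.3 in EM-males and 71.8 ± 28.8 in EM-females (SD, n = 6 each), except with the stricter filter (0.68). Among genes of spermatids and sperm, 21 of 33 were called higher in EM-males (63.6%) and 3 higher in EM-females (9.09%, median 3.68). The sperm genes dcst1 (9.39), DCST2 (7.91) and spaca6 (8.42), whose products act in fertilization, were higher in EM-males. TSSK6, a kinase of late spermatids, was at least 217-fold higher in EM-males, and FANK1 at least 1529-fold higher. FANK1 had 1872, 3045 and 3724 in EM-males and 0, 0.861 and 1.58 in EM-females. The 3 genes that were higher in EM-females were HOOK1, TEX264 and pgk1, of which pgk1 is a glycolytic enzyme of many tissues.

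Meiotic chromosome genes were higher in the testis in 22 of 27 cases and in the ovary in 1, prdm9 (-2.24), with a median of 4.50 (4.43 with the bound). These were 81.5% and 3.7% of the list, against 44.6% and 32.5% of all tested genes. HORMAD1, a protein of the unsynapsed chromosome axis, had 1668, 2859 and 5526 in EM-males and 2.37, 3.58 and 6.22 in EM-females (9.39 ± 0.32, adjusted p = 4.4e-10). The synaptonemal complex gene sycp2 had 5108, 7637 and 11866 in EM-males, against 13.3, 19.7 and 34.8 in EM-females (8.35 ± 0.27, adjusted p = 3e-10). For the meiotic cohesin rec8b the values were 605, 1423 and 1690.5 in EM-males and 0, 1.06 and 2.99 in EM-females (9.67 ± 0.54, adjusted p = 2e-08). These genes separated the sexes in every fish. The list summed to 18546 in EM_high_male replicate 2 and to between 26890.4 and 47207 in the other EM-males, and to between 2652 and 3105 in the EM-females. The members brca2, mlh3, HSF2BP and fancl, of which brca2, mlh3 and fancl also serve DNA repair in other cells, were not called.

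Of 22 genes of germ cells in both sexes, 11 were called higher in EM-males (50.0%) and 5 higher in EM-females (22.7%), and 6 were not called (median 1.09), where 44.6% and 32.5% of all tested genes were called in these directions. The 5 included ca15b, given above among oocyte genes, with a mean of 4.38 in EM-males and 4277 in EM-females. The sum of the list without ca15b was not computed. The germ cell RNA helicase ddx4, also called vasa, had 2207, 5925 and 8581 in EM-males and 2046, 2255 and 2704 in EM-females (1.11 ± 0.26, adjusted p = 0.002), and its sexes overlapped. The germ cell RNA-binding protein dazl (1.92) and the piRNA-binding protein piwil1 (2.66) were higher in EM-males, and PIWIL2 was not called (0.35 ± 0.22, adjusted p = 0.16). PIWIL2 passed the threshold in 8 of the alternative settings, among them DESeq2 (0.55). Regulators of spermatogonia and spermatocytes were likewise near the shares of all tested genes, with 10 of 20 called higher in EM-males and 5 higher in EM-females (median 1.42), and the transcription factor etv5b (-5.46) went furthest to the ovary.

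**Figure D2:**
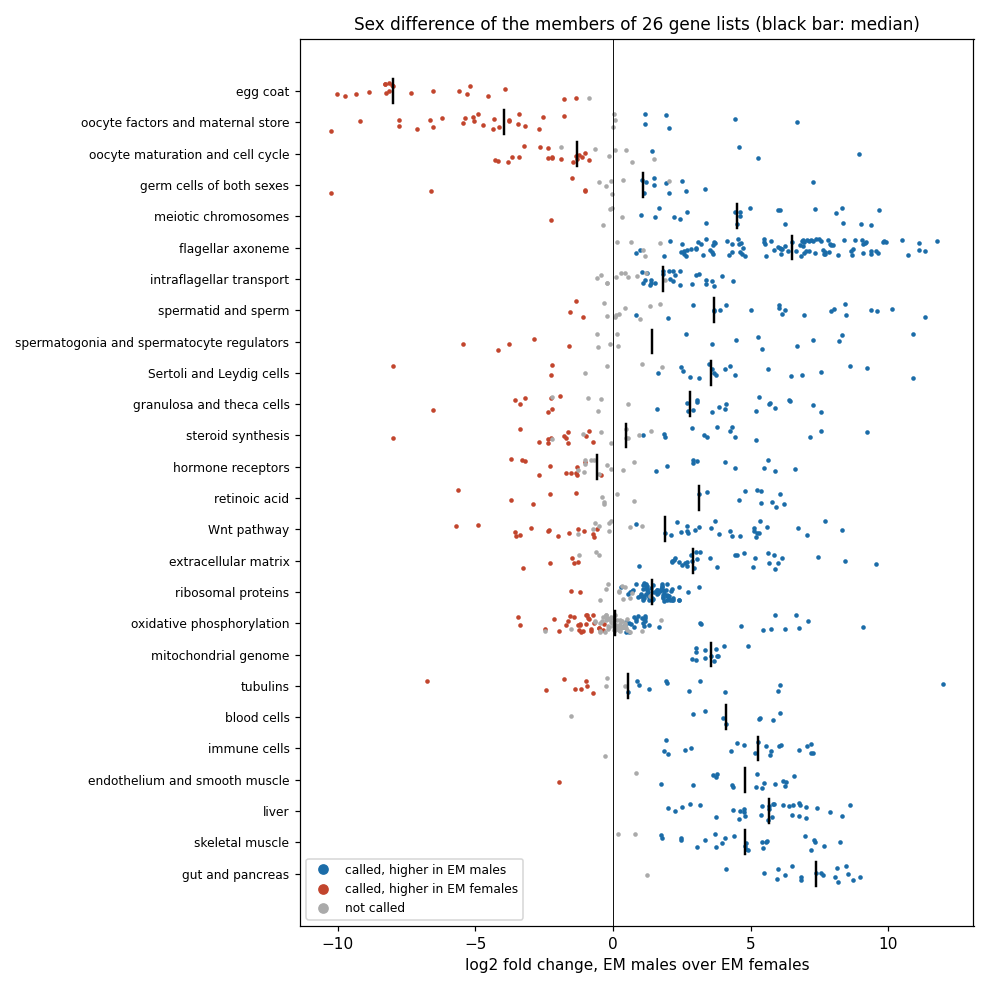
Log2 fold change of EM-males over EM-females for each tested member of the 26 gene lists, 1 point per gene, coloured by its call, with the median of each list as a black bar and fitted values also for genes at the floor. Egg coat genes lie on the ovary side (median -7.99) and axoneme genes on the testis side (median 6.51), and steroid synthesis, hormone receptors and tubulins spread to both sides.

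In several families 1 member was used in the testis and a related member in the ovary. These pairs were chosen after their values were seen. The largest contrast was in the alpha tubulins, subunits of microtubules. The gene tuba7l had 8528, 12395 and 19740.0 in EM-males and 1.33, 2.08 and 4.95 in EM-females (11.99 ± 0.42, adjusted p = 5.6e-10), while tuba4l had 129.7, 189.9 and 279 in EM-males and 17505, 17900.0 and 19339 in EM-females (-6.77 ± 0.23, adjusted p = 4.2e-10). Over all tubulins and their gamma complex, 12 of 23 genes were called higher in EM-males (52.2%) and 8 higher in EM-females (34.8%), near the 44.6% and 32.5% of all tested genes.

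The same held for a replication helicase subunit. MCM6 had 879.7, 1577 and 2241 in EM-males and 1.24, 2.51 and 4.97 in EM-females (8.95 ± 0.32, adjusted p = 6.8e-10). Its maternal relative mcm6l had 33.5, 98.3 and 204 in EM-males, against 417, 1555 and 3279 in EM-females (-4.28 ± 0.53, adjusted p = 1.8e-05). No fish of either sex lay within the range of the other sex in these genes. The linker histones, which bind DNA between nucleosomes, were divided in the same way. H1-10 had 1758, 2196 and 3425 in EM-males and a lowest and median value of 9.48 and 22.1 in EM-females (6.70 ± 0.33, adjusted p = 6.8e-09), and the maternal h1m had 6.83, 26.6 and 121 in EM-males and 12380.0, 15636 and 17090.0 in EM-females (-9.19 ± 0.60, adjusted p = 1.1e-07). The RNA-binding Nanos proteins of germ cells were split too. nanos2 had 4.26, 18.5 and 35.3 in EM-males and 0 counts in each EM-female, which makes it at least 9.65-fold higher, and NANOS3 had 1.27, 2.91 and 8.82 in EM-males and 256, 296 and 373 in EM-females (-6.62 ± 0.41, adjusted p = 3.8e-08).

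**Figure D3:**
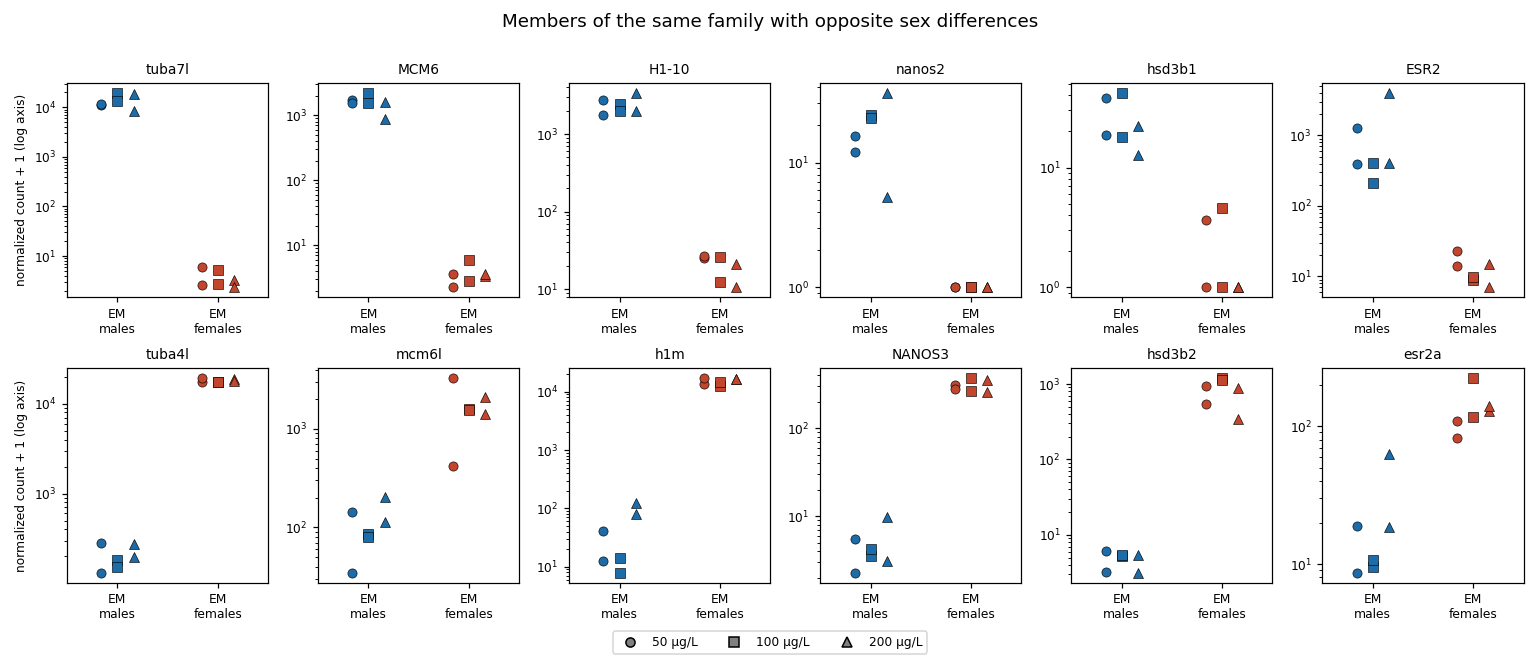
Normalized count plus 1, on a log axis, of 6 pairs of related genes in each fish, with EM-males left and EM-females right in every panel and symbols for the concentration. The upper member of each pair was higher in EM-males and the lower member in EM-females, with no overlap of the sexes in any of the 12 panels.

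Somatic cells of the testis were traced by genes of Sertoli and Leydig cells (median 3.55). Of 26 tested, 19 were called higher in EM-males (73.1%) and 3 higher in EM-females (11.5%). The shares over all tested genes were 44.6% and 32.5%. The Leydig cell hormone insl3 had 2036, 3027 and 5114 in EM-males and 0, 1.15 and 3.16 in EM-females (10.92 ± 0.47, adjusted p = 2.9e-09). The Sertoli cell hormone amh had 341, 1055 and 1743 in EM-males, against 0.79, 2.17 and 4.19 in EM-females (8.63 ± 0.50, adjusted p = 2.5e-08). For the gonadal growth factor gsdf the values were 4222, 7621 and 11694 in EM-males and 22.9, 56.5 and 89.5 in EM-females (6.86 ± 0.36, adjusted p = 1.1e-08). All 3 separated the sexes. The testis transcription factor DMRT1 was higher in EM-males (3.67 ± 0.50), with a mean of 129 ± 64.3 in EM-males and 9.42 ± 7.61 in EM-females (SD, n = 6 each). The 3 members called higher in EM-females were hsd3b2, cyp17a1 and SOX9 (ENSDARG00000043923). SOX9 was matched without its copy letter and stands in the granulosa and theca list too, so its place among Sertoli cell genes is uncertain.

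Of genes taken as markers of granulosa and theca cells, 19 of 32 were called higher in EM-males and 8 higher in EM-females (median 2.81). Among all tested genes, 44.6% and 32.5% were called in these directions, so counts on the testis side were common outside this list too. The summed list was higher in every EM-female than in 5 of the 6 EM-males. It also holds the oocyte growth factor bmp15, with a mean of 27.0 in EM-males and 2126.3 in EM-females. The sum without bmp15 was not computed, so the higher sums cannot be assigned to granulosa and theca cells. The 19 included activin and inhibin subunits (INHBB ENSDARG00000040777 6.41, inhbaa 3.06) and the Wnt ligand WNT4 (2.73), and also INHBA and the activin antagonist FST (ENSDARG00000057992), which every EM-female held at 3 counts or fewer. The ovarian transcription factors FOXL2 (ENSDARG00000068417, -0.92, not called) and foxl2l (-1.94 ± 0.61, adjusted p = 0.012) were low in both gonads, and foxl2l averaged 4.68 in EM-males and 15.9 in EM-females. Of the 26 lists, those of the egg coat (-7.99) and of oocyte factors (-3.97) had the lowest medians. The 8 members of the granulosa and theca list called higher in EM-females included bmp15 and foxl2l. They also included RSPO1 (-3.55), hsd17b12a (-3.39), esr2a (-3.19), cyp11a1 (ENSDARG00000002347, -2.36), cyp17a1 (-2.25) and SOX9 (ENSDARG00000043923, -2.22). The list and that of Sertoli and Leydig cells share members, STAR and cyp17a1 among them, and its sum was largest in EM_high_male replicate 2, at 15344, against 3507 to 5362 in the other EM-males and 5552 to 7938 in the EM-females. Without EM_low_male replicate 2 and EM_high_male replicate 2, 18 of 33 members were called higher in EM-males and 8 higher in EM-females.

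Steroid synthesis genes lay on both sides. Of 36 tested, 14 were called higher in EM-males (38.9%) and 13 higher in EM-females (36.1%), near the 44.6% and 32.5% of all tested genes. The median was 0.49, that of all tested genes 0.47, and it was 0.01 without EM_low_male replicate 2 and EM_high_male replicate 2 and 0.11 without EM_high_male replicate 1 as well. STAR, which brings cholesterol into the mitochondrion, had 788, 1746 and 1972 in EM-males and 1.80, 7.09 and 12.6 in EM-females (7.57 ± 0.36, adjusted p = 4.8e-09). The enzyme gene cyp11c1, which acts in the synthesis of 11-ketotestosterone, had 577, 1329.5 and 2322 in EM-males, against 0.622, 1.72 and 2.99 in EM-females (9.22 ± 0.51, adjusted p = 1.9e-08). Next in that pathway, hsd11b2 was higher in EM-males (4.42 ± 0.39). The genes hsd17b12a (-3.39) and hsd17b12b (-2.69) were higher in EM-females, as was cyp17a1 (-2.25 ± 0.31), whose enzyme leads from progestins to androgens.

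Here too related genes went apart. The 3-beta-hydroxysteroid dehydrogenase gene hsd3b1 had 11.8, 19.6 and 41.2 in EM-males and 0, 0 and 3.59 in EM-females (4.26 ± 0.85, adjusted p = 0.00055), and hsd3b2 had 2.13, 4.30 and 5.09 in EM-males and 343, 919 and 1199 in EM-females (-7.98 ± 0.37, adjusted p = 4e-09). Of the genes for the cholesterol side-chain cleavage enzyme, ENSDARG00000092696 was higher in EM-males (5.18 ± 0.56) and ENSDARG00000002347 was higher in EM-females (-2.36 ± 0.48). The gonadal aromatase gene cyp19a1a, which encodes the target of exemestane, was low in both gonads and not called: it had 0, 3.70 and 17.8 in EM-males and a median of 7.80 and a highest value of 111 in EM-females (-2.23 ± 1.05, adjusted p = 0.071). The sexes overlapped, and the gene passed the threshold in 4 of the alternative settings, among them without EM_low_female replicate 2 (-2.63) and without EM_middle_male replicate 2 (-3.15).

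Hormone receptors were spread over both sides, with 11 of 34 called higher in EM-males (32.4%) and 12 higher in EM-females (35.3%). For all tested genes the shares were 44.6% and 32.5%. The list median was -0.59, and -0.50 with the bound. The estrogen receptors took opposite sides. ESR2 (ENSDARG00000034181) had 212, 410.1 and 4049 in EM-males and 5.99 to 21.7 in EM-females (5.90 ± 0.73, adjusted p = 2e-05), and esr2a had 7.63, 13.7 and 61.8 in EM-males and 80.9, 121 and 222 in EM-females (-3.19 ± 0.51, adjusted p = 9.9e-05). The highest EM-male in both genes was EM_high_male replicate 2. The receptor esr1 was higher in EM-males (2.90 ± 0.66), as was the progesterone receptor pgr (3.05 ± 0.71), and the membrane progestin receptor paqr5a was higher in EM-females (-3.30 ± 0.40).

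The retinoic acid pathway has been linked to entry into meiosis in vertebrate germ cells. In this list 11 of 21 genes were called higher in EM-males (52.4%) and 5 higher in EM-females (23.8%). Among all tested genes 44.6% and 32.5% were called in these directions. The list median was 3.12, and 2.27 with genes at the floor set to their bound. The synthesis enzyme ALDH1A2 was higher in EM-males (3.43 ± 0.41) and rdh10b in EM-females. Of the degrading enzymes, CYP26A1 was not called (-0.31 ± 0.43), and CYP26B1 and CYP26C1 were called higher in EM-males at low counts. Their means were 13.0 and 9.21 in EM-males and 0.29 and 0 in EM-females. Among Wnt pathway genes 27 of 51 were called higher in EM-males (52.9%) and 15 higher in EM-females (29.4%, median 1.88), again near the shares of all tested genes. The ligand enhancer RSPO2 and the Wnt antagonist dkk1a, both at 3 counts or fewer in every EM-female, were on the testis side, and ctnnb2 (-2.36), a beta-catenin gene, and AXIN2 (-3.37) were on the ovary side. Of extracellular matrix genes, 32 of 40 were called higher in EM-males and 5 higher in EM-females (median 2.90, and 2.85 with the bound). The collagen gene col1a1b had 8384, 11145 and 15225 in EM-males and 21.3, 25.9 and 39.5 in EM-females (8.44 ± 0.27, adjusted p = 3.1e-10). Basement membrane genes went both ways. COL4A2 (-3.25), lamc1 (-2.30) and hspg2 (-1.43) were called higher in EM-females, and COL4A1 was not called. Higher in EM-males were lamb1b (5.66), LAMB1 (2.27), LAMB2 (2.68), lama5 (2.23), NID1 (5.10 and 2.14), NID2 (3.01) and col18a1a (2.39).

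Transcripts of the mitochondrial genome were higher in the testis for 13 of 13 genes (median 3.55). Nuclear genes of oxidative phosphorylation were not of a single direction (median 0.07). Of 113 tested, 32 were called higher in EM-males (28.3%), 28 higher in EM-females (24.8%) and 53 were not called. Both shares were below the 44.6% and 32.5% of all tested genes, of which 23.0% were not called. The cytochrome oxidase subunit MT-CO1 had 74615, 241490.0 and 472800.0 in EM-males and 11039, 15046 and 30948 in EM-females (3.35 ± 0.37, adjusted p = 5.2e-06). The mitochondrial sum was largest in EM_low_male replicate 2 and EM_high_male replicate 2, and without these fish 13 of 13 genes were called and the median was 2.78. Among ribosomal protein genes 68 of 81 were called higher in EM-males and 2 higher in EM-females, rpl7l1 and rps19bp1, neither of which is a core ribosomal protein (median 1.40). RPL3 (0.85 ± 0.17) and RPL4 (0.71 ± 0.17) were called with overlapping sexes, which leaving out 1 fish would have parted. The nuclear non-coding RNA malat1 had 8935, 36052 and 63374 in EM-males and 483, 598 and 759.7 in EM-females (5.39 ± 0.45, adjusted p = 6.3e-07).

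Markers of liver, gut and pancreas, and skeletal muscle moved with sex, as did those of immune cells, blood cells, and endothelium and smooth muscle. Over all tested genes 44.6% were called higher in EM-males and 32.5% higher in EM-females. Higher in EM-males were 33 of 33 liver genes (median 5.68), 18 of 19 gut and pancreas genes (7.36), 25 of 27 skeletal muscle genes (4.80), 20 of 21 immune cell genes (5.27), 8 of 9 blood cell genes (4.12) and 16 of 18 genes of endothelium and smooth muscle (4.79), and 1 gene, of the last list, was higher in EM-females. With genes at the floor set to their bound, the medians were 4.92 for liver, 6.83 for gut and pancreas, 3.76 for skeletal muscle, 4.32 for immune cells and 4.35 for endothelium and smooth muscle. In EM-males the sums ranged from 3876 to 26836 for immune cells, from 1404 to 2645 for blood cells, from 3882 to 11281 for skeletal muscle and from 6081 to 37526 for endothelium and smooth muscle. In EM-females they ranged from 184 to 1945 for immune cells, from 45.5 to 150 for blood cells, from 206 to 306 for skeletal muscle and from 231 to 520 for endothelium and smooth muscle. Every EM-female had at most 3 counts in 6 of the tested liver genes, 4 of gut and pancreas, 10 of skeletal muscle and 5 of immune cells. Without EM_low_male replicate 2 and both EM_high_male fish, 29 of 33 liver genes and 13 of 17 gut and pancreas genes were called higher in EM-males, with medians of 4.62 and 4.25. For the axoneme list the count without these fish was 100 of 105, for meiotic chromosomes 22 of 27 and for the egg coat 19 of 21 higher in EM-females. The part of the tissues and cells named in this paragraph in the counts of genes higher in EM-males was not tested.

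Some genes were called although the sexes overlapped, by an overlap that leaving out 1 fish would have ended. FABP6, an ileal bile acid binding protein, had a lowest, median and highest value of 2.56, 4941 and 29624 in EM-males and of 0.619, 3.08 and 4.97 in EM-females. The apolipoprotein gene apoa1a had 10.3, 1472 and 45535 in EM-males and at most 14.3 in EM-females, and lgals2b had 3.81, 4911 and 24231 in EM-males and 0.529, 2.51 and 67.1 in EM-females. All 3 spanned several orders of magnitude among testes. The call of apoa1a was lost without EM_low_male replicate 2 and EM_high_male replicate 2 (3.77), without EM_low_male replicate 2 alone (4.61), and without EM_low_female replicate 1 (8.19), EM_low_female replicate 2 (7.89) or EM_high_female replicate 1 (7.20). The call of lgals2b was lost without EM_low_male replicate 2 and both EM_high_male fish (5.17). On the ovary side these genes were GAPDH (-1.80), BZW1 (-1.96), mcl1a (-1.90), pfn2b (-1.22) and khdrbs1a (-0.74). With the stricter filter the calls of GAPDH (-1.20), pfn2b (-0.63) and khdrbs1a (-0.15) were lost. That filter moved the log2 fold changes of the genes it kept by a median of 0.58 toward EM-males. The call of GAPDH was also lost without the concentration block (-1.24), and all 5 lost theirs at 200 µg/L alone.

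By the naming rule the largest fold changes toward the testis were those of pimr183, ccdc166, tuba7l, RAB36, SAXO2, ccdc83, pimr73, RIBC1, pimr205 and pimr54. In pimr183, ccdc166, pimr73, pimr205 and pimr54 each EM-female had 0 counts, and the genes were at least 351, 344, 222, 220 and 205-fold higher in EM-males. The genes ccdc83, RAB36 and RIBC1 were at least 2063, 1537 and 1337-fold higher, and SAXO2 differed by 11.80 ± 0.59. SAXO2 and RIBC1 encode microtubule-associated proteins of cilia and flagella, and RAB36 is a small GTPase. The pimr genes belong to a large family of similar kinase genes, so that counts of single members are uncertain. RIBC1 was uneven among testes, with a median of 2617 and a highest value of 5116 but 1 fish far below.

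Directions repeated in the control fish for most called genes. Of 7384 genes called higher in EM-males that could be tested in controls, 98.1% were higher in control males than in control females, and 68.9% were also called there. Of 6479 called higher in EM-females, 96.3% were lower in control males than in control females and 44.8% were called. Beyond 4-fold the shares with the same direction were 99.8% of 4781 genes and 99.6% of 1994 genes. Genes not called in EM fish also had the same direction in controls, for 68.1% of 4280 genes. Gut and pancreas genes repeated theirs too, 19 of 19, so a repeated direction does not mark a gene of the gonad. Over 18494 genes tested in controls, 29.5% were called higher in control males and 16.5% higher in control females, or 46.0% in all, with 2 fish of each sex.

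**Figure D4:**
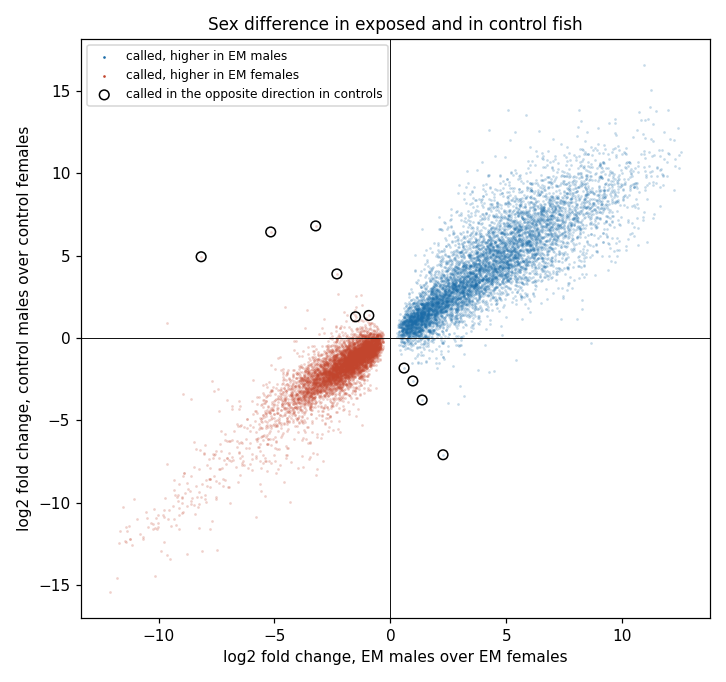
Log2 fold change of control males over control females (y axis) against that of EM-males over EM-females (x axis) for genes called in EM fish and tested in controls, 1 point per gene, with circles on the 10 genes called in opposite directions. Most points lie in the lower left and upper right of the plot, and of those on the opposite sides only the circled ones were called in controls.

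The exceptions were few. Among genes called higher in EM-males 4 were called in the opposite direction in controls, and among those called higher in EM-females 6 were. The gene vtg1 encodes the yolk precursor vitellogenin, which is made in the liver under estrogen. It had 27.1, 44.4 and 760.3 in EM-males and 0, 15.1 and 68.9 in EM-females (2.27 ± 0.86, adjusted p = 0.030), and 5.35 and 11.1 in control males against 2243 and 19.5 in control females. The highest EM-male was EM_middle_male replicate 1 and a single control female carried the control value, and the sexes overlapped in EM fish. The call of vtg1 was lost in 11 alternative settings, among them without EM_low_male replicate 1 (2.12), EM_middle_male replicate 1 (1.32), EM_middle_female replicate 1 (2.33) or EM_middle_female replicate 2 (2.06). vtg2 was called higher in EM-males (adjusted p = 0.0073 by edgeR) and had 2.67 and 4.16 in control males against 94.0 and 8.50 in control females, where it was not called. Its call in EM fish was lost at 50 and 100 µg/L alone and without EM_low_male replicate 2 and both EM_high_male fish. The other vitellogenin genes of the liver list were also called higher in EM-males: vtg3 (3.76), vtg4 (3.17), vtg5 (1.99), vtg6 (5.42) and vtg7 (4.81). Of the 33 liver genes, vitellogenins included, 27 had the same direction in controls. The sexes did not overlap in si:cabz01069013.3, with 13.4, 82.2 and 207 in EM-males and 374, 549.9 and 825 in EM-females (-3.22 ± 0.39, adjusted p = 9.8e-06), against 26.7 and 97.0 in control males and 0.797 and 0 in control females. In a fit of all 16 libraries, added after the data were examined, it was the 1 gene of 22106 whose sex difference differed between EM and control fish at an adjusted p under 0.05 (0.0187), with 1667 genes (7.54%) at an unadjusted p under 0.05. The others with the largest opposite difference in controls were si:dkey-71b5.3, si:dkey-92i15.4, ECE2, cyp2aa9, DIS3L, ASPM and CCDC127, all with overlapping sexes in EM fish, and each lost its call in some alternative settings.

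The sex difference was tested for a change with concentration. Of 20487 genes, 1 was called (0.00488%) by edgeR, with 1175 genes (5.74%) at an unadjusted p under 0.05. DESeq2 called 115. The called gene was sybu, which encodes syntabulin, a linker of cargo to kinesin motors, known in zebrafish oocytes for its part in moving the dorsal determinant. At 50 µg/L sybu had 24.2 and 22.3 in EM-males and 3398 and 4064 in EM-females. At 100 µg/L it had 268 and 253 in EM-males and 3713 and 3792 in EM-females, and at 200 µg/L 366 and 405 in EM-males and 1892 and 1685 in EM-females. The control fish had 152 and 289.7 in males and 3182 and 3020 in females. The log2 fold change was -7.57 at 50 µg/L, -4.08 at 100 µg/L and -2.39 at 200 µg/L (adjusted p of the change = 0.00114), and sybu was called in 21 of 21 alternative settings of this test. The number of genes called was 17 without EM_high_male replicate 1 and 4 without EM_high_male replicate 2. It was 2 without EM_low_male replicate 1, EM_low_female replicate 1 or EM_high_female replicate 1, each left out alone. One tank stood for each concentration, and tank and concentration cannot be told apart.

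**Figure D5:**
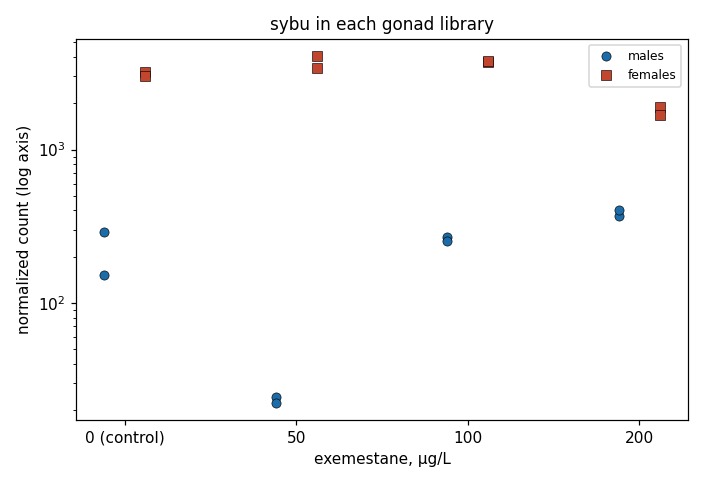
Normalized count of sybu in each gonad library, on a log axis, against the concentration of exemestane, with males as circles to the left and females as squares to the right at each concentration. Males lie between 22.3 and 24.2 at 50 µg/L and between 366 and 405 at 200 µg/L, and females between 3398 and 4064 at 50 µg/L and between 1685 and 1892 at 200 µg/L.

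Single genes were also compared by an exact two-sided permutation test of the sexes within concentration on log2(value + 1). With 216 arrangements the smallest p it can give is 0.00926, which any gene whose sexes did not overlap reaches. It gave larger values for PIWIL2 (0.0648), cyp19a1a (0.139) and nasp (0.111) in the same exact permutation test.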

How the data were processed

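Gonad RNA of single fish was sequenced. The authors aligned to GRCz11 (HISAT2 2.0.5), took out duplicates (SAMtools 1.5) and assigned reads to genes on the reverse strand (HTSeq 0.9.1). The authors deposited these whole-number read counts of 32520 genes, with 5 tallies that were dropped, and a normalized signal for 28353 genes. Checked on the file, this signal equalled counts over a constant factor for each library to within 5.39e-08%. The factors were read off the deposited values and were not computed anew. The paper describes its normalized counts as coming from DESeq2. A single malformed cell of the count file was split into its values.

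The counts were tested with edgeR 4.0.16 in R 4.3.3 (filterByExpr, TMM, robust quasi-likelihood F-test, concentration as a block, and glmTreat for the 4-fold test), on the 12 EM libraries. Because TMM and size factors differ, fold changes and ratios of printed values differ slightly. Controls were fitted apart from the EM fish. The alternatives were DESeq2 1.42.0, other scalings and filters, thinning to the shallowest library, other sample sets, the replicate block and each fish left out. The fits without libraries rich in liver or gut RNA were added after the data were examined.

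The floor was 3 counts in each library. Floors cover counting error only, as reads carry no molecular identifiers. The ± of a fold change is a standard error from the fit and that of a mean an SD, and both include the spread between fish. Symbols came from the reference table and the tables of the paper and named 29270 genes. Upper-case symbols are those of the table. A list member whose own symbol was missing was matched to these without its copy letter. Copies that a list did not name may therefore be counted in it. The sequences, promoters and coordinates of genes were not used here. The members and lists were chosen with earlier results of these data known. Genes named outside the lists followed a rule: the 10 largest fold changes in each direction among called genes with sexes that did not overlap and no clone name as symbol, of these the 10 with the most counts in each direction at an absolute log2 fold change of at least 3, the 10 with the largest opposite control difference and control sexes that did not overlap, genes called for concentration, and 5 genes in each direction called with an overlap that leaving out 1 fish would have ended. Of the genes with the most counts, the mitochondrial ones are given in part. Tests were checked on simulated counts in which a small set of genes changed, in random directions. Most genes differed in the real data, so that check did not cover the scaling between testis and ovary.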

Additional observations from a re-analysis of the deposited data

Results flagged for a closer look

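Among 124 sets of 6 values (list sums and single genes in EM-males or EM-females), 16 had a highest or lowest fish far from the other 5 by Dixon's ratio, of which chance gives about 1 in 20. In EM-males, 7 of these concerned EM_high_male replicate 2. Its sum was lowest for germ cells of both sexes (20188, others 43093 to 54010.4) and highest for granulosa and theca cells (15344, others 3507 to 5362), steroid synthesis (23794, others 6286 to 10448), hormone receptors (10060, others 3747 to 5288) and extracellular matrix (38755, others 17471 to 23764), and it was highest for ESR2 (4049, others 212 to 1290) and esr2a (61.77, others 7.63 to 17.9). Its liver and gut and pancreas sums were the largest among EM-males, and their part in these values was not tested. Elsewhere among EM-males, the skeletal muscle sum was highest in EM_low_male replicate 1 (11281), which also had the highest cyp19a1a (17.8), STAR was lowest in EM_middle_male replicate 1 (788.5) and the same fish had the highest vtg1 (760.3).

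In EM-females the sum of oocyte factors was highest in EM_low_female replicate 2 (121072), that of extracellular matrix in EM_high_female replicate 1 (2255) and that of immune cells in EM_middle_female replicate 2 (1945), and the sum of oxidative phosphorylation was lowest in EM_middle_female replicate 1 (89248). ca15b was lowest in EM_high_female replicate 2 (3069). Differences between groups were found for sybu, whose sex difference changed with concentration (edgeR, adjusted p = 0.00114), and for si:cabz01069013.3, whose sex difference differed between EM and control fish (edgeR, adjusted p = 0.0187).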

How the results depend on the processing

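Among the EM-males and EM-females, the stricter filter on low counts left 8357 genes called (4151 higher in EM-males, 4206 higher in EM-females) and 3020 beyond 4-fold (2005 and 1015), with 11034 genes tested in place of 20487. The 200 µg/L fish on their own gave 9813 calls (6031 and 3782) and 4951 beyond 4-fold (3974 and 977), with fewer fish, and the 50 µg/L fish on their own 5346 beyond 4-fold (3986 and 1360). DESeq2 called 1341 genes beyond 4-fold as higher in EM-females and 115 genes for the change of the sex difference with concentration, and the cause was not tested. With each EM fish left out, genes called ranged from 9381 to 9625 higher in EM-males and from 6504 to 6816 higher in EM-females. Genes called for concentration then ranged from 1 to 17. With each control fish left out instead, called genes with the same direction in controls ranged from 95.2% to 96.9%. Male and female replicate numbers are not tied by the labels, and deviations of same-numbered fish did not go together (r of 0.0192, 0.0184 and -0.0299 at 50, 100 and 200 µg/L). With the replicate block, 9077 genes were higher in EM-males and 6670 higher in EM-females, 1 gene was called for concentration, and the call of CCDC127 was lost. Upper quartile scaling moved log2 fold changes by a median of 0.36, DESeq2 size factors by 0.20 and library totals by 0.13. No scaling moved the share of calls higher in EM-males by more than 10 points. The stricter filter moved log2 fold changes further, by a median of 0.58 toward EM-males over its 11034 genes. Its values for RFX2, IFT88 and CYP26A1 below include this shift. Directions turned for RFX2 (-0.17 at 50 µg/L alone, and -0.13 to 0.27 with each fish left out), IFT88 (-0.35 at 50 µg/L alone, -0.043 with no filter, and -0.029 to 0.28 with each fish left out), hsd17b1 (0.63 at 100 µg/L alone) and CYP26A1 (0.26 with the stricter filter, 0.067 with upper quartile scaling, 0.024 without EM_low_male replicate 2 and EM_high_male replicate 2, 0.0037 without these and EM_high_male replicate 1), none of which was called as reported although RFX2 (0.73) and IFT88 (0.68) passed with the stricter filter, and for DIS3L (0.28 at 50 µg/L alone); the cause was not tested. Of 3360 values of 127 genes under the alternatives, 3228 kept direction and side of the threshold. The lower depth of the EM-males limits their low values, and thinning every library to the shallowest gave 8129 genes higher in EM-males and 5627 higher in EM-females.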
